A study of Homo sapiens with 6 samples.

Results

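The genes described here are a pair of cadherins (CDH1 and CDH3), a pair of catenins (CTNNB1 and CTNND1) and 4 further genes typical of epithelia or their matrix (ATP12A, DMBT1, COL6A5 and TP63). They are 8 of the 33644 genes in the series' table and were listed by symbol, most of them because their log2 fold changes stood among the largest of that table, with the catenins set beside them. That choice used the same comparison, so the values of these genes are a description and carry no test. The labels give 3 samples of wild-type HEK293T, a human embryonic kidney line with the SV40 large T antigen, and 3 samples of an alt-LAMA3 KO derivative, all at day 0, with no treatment given, and grown in DMEM with serum. The labels do not say whether the derivative is a single clone or whether replicates are separate cultures, and the deposited p-values may reflect technical spread alone.

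The table holds a mean normalized count over all libraries and 1 comparison between 2 groups that its header does not name. No value per sample is in it, so the spread between replicates enters only through the deposited standard error (SE). A positive log2 fold change means higher expression in what is here called the numerator group, as against the denominator group. Whether either of them is the knockout is not known. The lowest means of the table did not match the number of labelled samples. Those shared by at least 100 genes each, and no sum of lower ones, took 9 values, 3 of them from genes higher in the numerator group, 3 from genes lower in it and 3 from genes with a log2 fold change of 0, where 6 samples are labelled.

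Marker genes did not match the labelled cells. Of 22 T lymphocyte markers, 18 reached a mean normalized count of 72.0 (5 per 1000000 of the summed means, the level taken here as clearly expressed), and none was at 0. Only 2 of the 14 HEK293 markers found reached it, and 5 were at 0, among them NEFL, NEFM, SALL1 and HOXC10. Of 24 epithelial markers 2 reached it as well. In the authors' deposited table those were KRT7 at 356 and MUC1 at 180, while the epithelial adhesion gene EPCAM stood at 1.16 and the keratin genes KRT5, KRT14 and KRT19 at 0. The summed mean normalized count was 129425 over the T lymphocyte markers and 653 over the epithelial ones. Of the 20 T lymphocyte markers with an adjusted p, 14 were lower in the numerator group and 0 higher. Over all tested genes 14.8% were lower and 14.7% higher. With only means of 72.0 or more tested, a level 18 of the 22 markers reached, 23.2% of genes were lower and 22.5% higher. The part of the T lymphocyte markers in the results below was not tested. Markers of other cells moved in both directions. Of 7 fibroblast markers tested 2 were higher and 1 lower, and 3 of the 13 found reached 72.0, with DCN, LUM and POSTN at 0 and a summed mean of 1423. Those higher were ACTA2 at 1.08 (SE 0.09, mean 1122) and THY1 at 2.87 (SE 0.69, mean 40.1), and COL3A1 was lower at -1.96 (SE 0.21, mean 111), all log2 fold changes of the authors' deposited table. Of 7 myeloid and B cell markers tested 2 were higher and 3 lower, and 1 of the 11 found reached 72.0, with MS4A1, PAX5 and S100A8 at 0 and a summed mean of 875. The authors' deposited table had ITGAX at 2.61 (SE 0.18, mean 754) and CSF1R at 4.20 (SE 0.76, mean 20.7) on the higher side, and FCGR3A at -1.36 (SE 0.33), CD79B at -2.37 (SE 0.43) and LYZ at -6.02 (SE 1.93) on the lower. None of 3 keratinocyte markers tested was called. The part of these markers in the results was not tested either. Whether fewer cells of a type or less RNA per cell gives a lower value cannot be told apart in bulk RNA.

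Classical cadherins are calcium-dependent adhesion proteins that bind the same cadherin on the next cell. Inside the cell their tail holds p120-catenin (CTNND1) next to the membrane and beta-catenin (CTNNB1) further out, which links through alpha-catenin to actin, and beta-catenin also serves as the nuclear effector of Wnt signalling. E-cadherin (CDH1) and P-cadherin (CDH3) are hallmarks of epithelial sheets, and lymphocytes are known to recognise E-cadherin through the integrin ITGAE/ITGB7 and the receptor KLRG1.

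Upstream sequences from RefSeq (GRCh38.p14) were matched for 4 of the 8 genes, ATP12A, DMBT1, TP63 and CTNNB1, and not for CDH1, CDH3, COL6A5 or CTNND1. The 2 printed here belong to higher genes and hold no annotated exon. They are the 250 bases before the start of ATP12A (chr13:24680158-24680407, plus strand) and of TP63 (chr3:189631139-189631388, plus strand), 5′ to 3′. Capitals mark matches to 4 motifs searched on both strands, with overlapping matches kept: the E-box CACCTG bound by ZEB and SNAI repressors, the AP-1 site TGACTCA, the RUNX site TGTGGT and the TATA box TATAAA.
ATP12A: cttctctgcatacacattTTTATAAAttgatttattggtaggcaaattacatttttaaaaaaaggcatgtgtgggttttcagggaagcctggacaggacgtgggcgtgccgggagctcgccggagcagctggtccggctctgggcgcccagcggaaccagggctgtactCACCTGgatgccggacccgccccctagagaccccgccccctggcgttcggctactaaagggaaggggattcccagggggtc
TP63: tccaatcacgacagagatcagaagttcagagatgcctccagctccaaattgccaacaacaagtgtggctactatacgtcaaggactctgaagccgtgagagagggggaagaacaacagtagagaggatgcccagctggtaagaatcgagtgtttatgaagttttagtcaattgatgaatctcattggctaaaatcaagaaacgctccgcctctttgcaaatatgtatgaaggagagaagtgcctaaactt
The ATP12A stretch held an E-box 81 bases before the start and a pair of overlapping TATA boxes, on opposite strands, at 232 and 230 bases before it. The TP63 stretch held none of the 4. Among 35116 upstream stretches of the same length, 17.5% held this E-box, 10.7% the TATA box, 11% the RUNX site and 4.20% the AP-1 site, so none of these letters was rare. CpG dinucleotides numbered 13 upstream of ATP12A, 6 upstream of TP63 and 3 upstream of DMBT1, against 34 upstream of CTNNB1 and a median of 11 over all stretches. The CTNNB1 stretch had more CpG than 93.2% of all stretches. All 250 bases of it and 89 of those upstream of DMBT1 lie in annotated exons, which limits the comparison.

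Of the 8 genes, 7 passed an adjusted p of 0.05 in the authors' deposited table, all higher in the numerator group, and CTNND1 did not. Over all 13957 genes that have an adjusted p, 29.5% passed, 14.7% higher and 14.8% lower. A change of at least 4-fold higher was called for 1.55% of them. Since the genes were picked from this comparison, nothing is read from their share.

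CDH3, on chromosome 16 from 68636189 to 68722616 (plus strand, GRCh38, GENCODE 29; ENSG00000062038.13), had a mean normalized count of 105 and a log2 fold change of 9.09 (SE 1.19) in the authors' deposited table. This was the highest fold change among the called genes with a mean of at least 72.0, and its 95% interval ran from 6.77 to 11.42. The fitted values place 99.8% of the CDH3 signal of both groups in the numerator group. With the fitted fold change, the mean of 105 leaves the denominator group few reads. If the libraries fell into 3 groups of 3, that is at most 0.575 normalized counts per library, and with 6 libraries 0.383. Both are below 1 count per library, the floor of 3 counts over 3 libraries. The lower end of the interval, 109-fold, would allow more, so a level below the floor is not established. The fold change of CDH3 is a fitted value, not a measured ratio.

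CDH1 starts 14.6 kb after the end of CDH3, on the same strand, from 68737225 to 68835548 (ENSG00000039068.18). In the authors' deposited table its mean normalized count was 74.8, just above the 72.0 minimum, and its log2 fold change 3.98 (SE 0.57), a fitted 15.8-fold difference with a 95% interval from 7.31-fold to 34.0-fold. The numerator group held 94.0% of its signal of both groups. On the same reckoning as for CDH3, at the fitted fold change, the denominator group had at most 13.4 normalized counts of CDH1 per library. The intervals of both cadherins, 2.87 to 5.09 for CDH1 and 6.77 to 11.42 for CDH3, did not overlap on the log2 scale. Exons of each cadherin overlap those of an antisense gene. Whether counting used strand is not given in the sources used here, so reads of the pair cannot be told apart.

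The catenins that bind these tails had lower fold changes, with intervals that did not reach those of either cadherin. Since the cadherins were picked for their large rises in this comparison, that gap is a description and carries no test. CTNNB1, on chromosome 3 from 41194741 to 41260096 (plus strand; ENSG00000168036.16), had in the authors' deposited table a mean normalized count of 1213. Its log2 fold change there was 0.38 with an SE of 0.09, or 1.30-fold, at an adjusted p of 9.28e-05 by the authors' deposited table. Its call was lost against a 1.5-fold change, with widened errors and with Holm adjustment (adjusted p up to 1). CTNND1, on chromosome 11 from 57753243 to 57819546 (plus strand; ENSG00000198561.13), had in the authors' deposited table a mean of 180 and a log2 fold change of 0.04 with an SE of 0.20 and an adjusted p of 0.919. Its interval, -0.35 to 0.44, leaves room for a difference of up to 1.35-fold. CTNND1 shares exons with the readthrough gene TMX2-CTNND1, listed at a mean of 1.34 in the authors' deposited table, and how shared reads were divided is not known. The plot of change and level shows the catenins at the foot of the scale and the cadherins far along it.

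**Figure D1:**
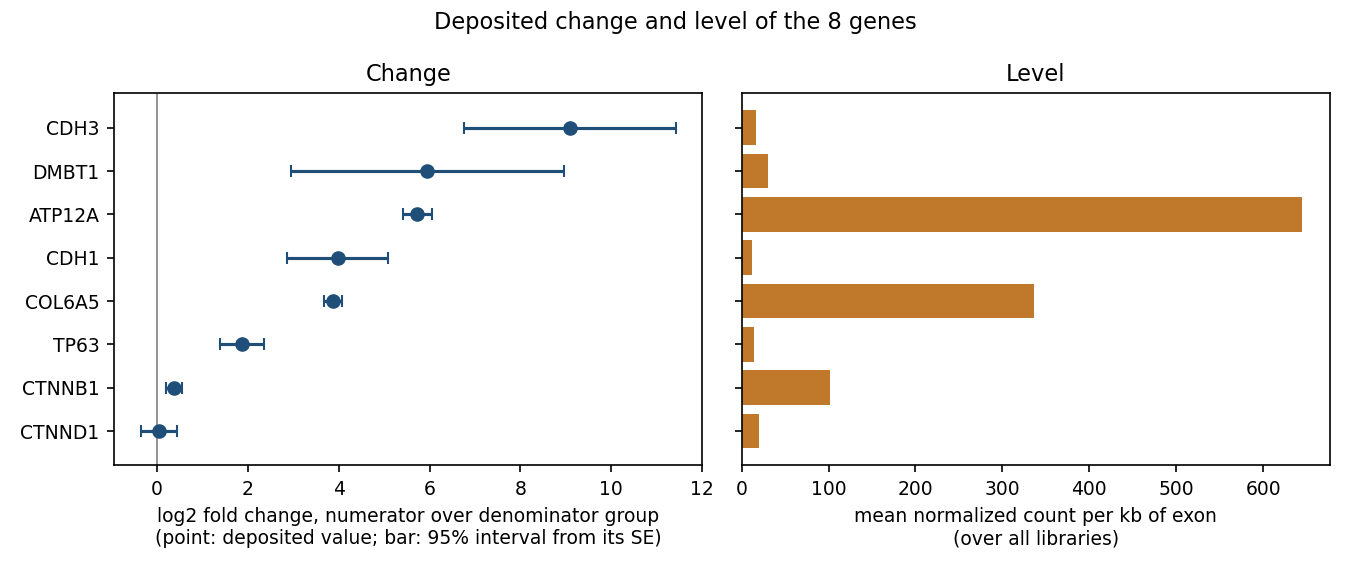
Left, log2 fold change of each of the 8 genes (point: deposited value, bar: 95% interval from its SE). Right, mean normalized count per kb of exon over all libraries. CDH3 has the highest fold change, 9.09, at a low level of 16.8 per kb, while ATP12A combines 5.73 with 644 per kb.

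Levels per exon length ordered the genes differently from their changes. Per kb of merged exons, ATP12A stood at 644 and COL6A5 at 336 normalized counts, above 96.4% and 92.2% of the genes with a mean above 0. CTNNB1 followed at 102. The other 5 genes lay close together, from 12.1 per kb for CDH1 and 13.9 for TP63 over 16.8 for CDH3 and 20.5 for CTNND1 to 30.1 for DMBT1. These are means over all libraries, and the groups compared share them unequally: by the fitted values the numerator group held 99.8% of CDH3 and 94.0% of CDH1, against 56.5% of CTNNB1 and 50.7% of CTNND1. The order within a group can therefore differ from this one. No spread over samples can be given for these levels.

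ATP12A encodes the catalytic subunit of the non-gastric proton-potassium pump of epithelia. It lies on chromosome 13 from 24680411 to 24712493 (plus strand; ENSG00000075673.11) and had a mean normalized count of 2863 and a log2 fold change of 5.73 (SE 0.16) in the authors' deposited table. That is 53.1-fold (95% interval 42.6 to 66.3), with 98.2% of the signal of both groups in the numerator group. On the reckoning used for CDH3, at the fitted fold change, the denominator group held at most 159 normalized counts of it per library.

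COL6A5 encodes a collagen VI alpha chain that can take the place of the alpha3 chain. It lies on chromosome 3 from 130345516 to 130484844 (plus strand; ENSG00000172752.14), with a mean of 3223 and a log2 fold change of 3.88 (SE 0.10) in the authors' deposited table, which is 14.7-fold (95% interval 12.8 to 16.9). By the ratio of change to error it ranked 3 among the called genes at or above the 72.0 minimum, while ATP12A ranked 6, CDH3 343, CDH1 416 and DMBT1 1052. CDH3, CDH1 and DMBT1 thus ranked far lower by this ratio than by fold change.

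DMBT1, a secreted scavenger receptor protein of mucosal surfaces, lies on chromosome 10 from 122560665 to 122643736 (plus strand; ENSG00000187908.16). The authors' deposited table gave it a mean normalized count of 243 and a log2 fold change of 5.95 with an SE of 1.53. The interval of 2.95 to 8.96 spans 7.71-fold to 498-fold. Its call was lost with widened errors (adjusted p = 0.337) and with Holm adjustment (adjusted p = 1), and held against a 1.5-fold change (adjusted p = 0.0117).

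TP63 encodes p63, the p53-family transcription factor of basal epithelia. It lies on chromosome 3 from 189631416 to 189897279 (plus strand; ENSG00000073282.12), and in the authors' deposited table its mean was 103 and its log2 fold change 1.86 (SE 0.25), or 3.64-fold (95% interval 2.60 to 5.08). It ranked 64 by fold change among called genes with a mean of at least 72.0, well below CDH3, DMBT1, ATP12A, CDH1 and COL6A5, which ranked 1, 2, 3, 8 and 10. The numerator group held 78.4% of its signal of both groups.

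**Figure D2:**
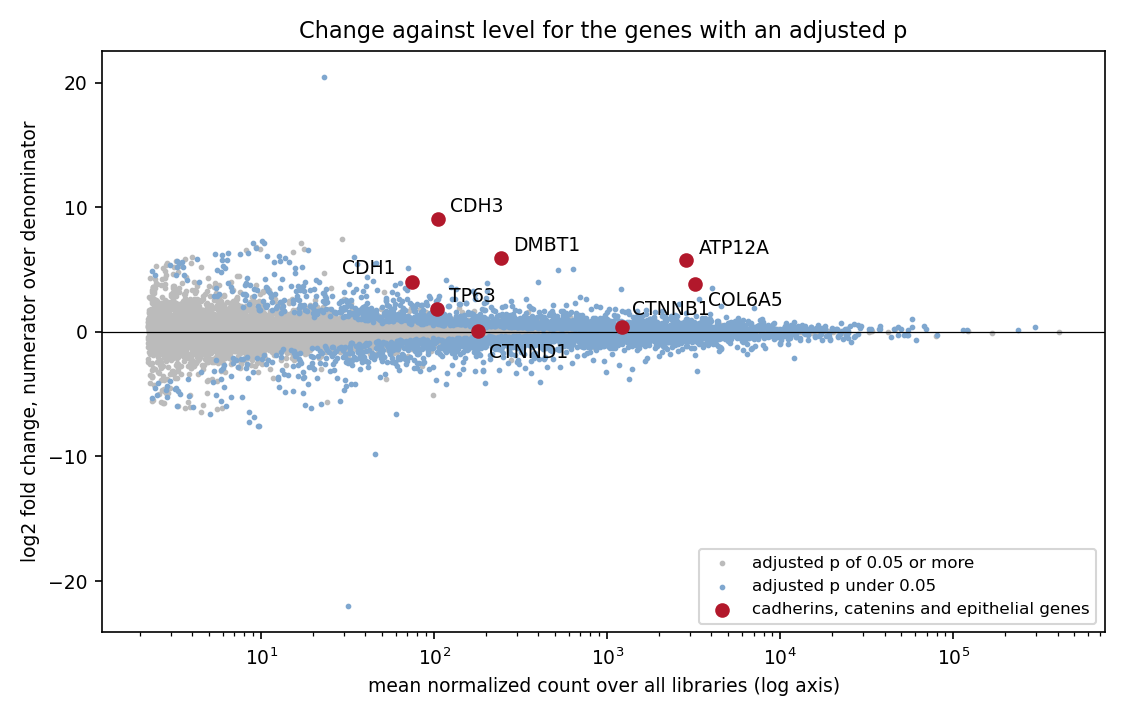
Log2 fold change against mean normalized count (log axis) for the 13957 genes with an adjusted p, those past 0.05 in blue, and the 8 genes in red. CDH3, DMBT1, ATP12A, CDH1 and COL6A5 sit at the upper edge for their level, and CTNND1 and CTNNB1 inside the cloud.

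The genes next to these in the order of fold change were of several kinds. DNAJC5B stood just above CDH1, and COL6A5 was the 10th of the 10 largest rises. IL23R followed ATP12A, CCNA1 and ERCC6 flanked TP63, and LDAF1 and LANCL1 flanked CTNNB1.

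The 8 genes differed in how their errors compared with those of genes at like levels. For each gene the SE was set beside the 200 tested genes nearest in mean. DMBT1 had an SE 8.06 times the median of such genes, CDH3 4.36 times, ATP12A 2.53 times, CDH1 1.69 times and COL6A5 1.64 times. For CTNNB1, CTNND1 and TP63 the SE was 0.948, 0.966 and 0.904 times that median. The 5 genes with the largest changes thus all had errors above the median for their level, ATP12A above all 200 of its neighbours in mean, DMBT1 above 99.5% and CDH3 above 99.0%, and the other 3 had errors slightly below that median. Low reads in 1 group and spread between libraries both widen an SE, and they cannot be told apart without values per sample. Ranked by the lower end of the 95% interval, CDH3 stayed at 1, ATP12A moved to 2, COL6A5 to 5, DMBT1 to 11 and CDH1 to 12.

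**Figure D3:**
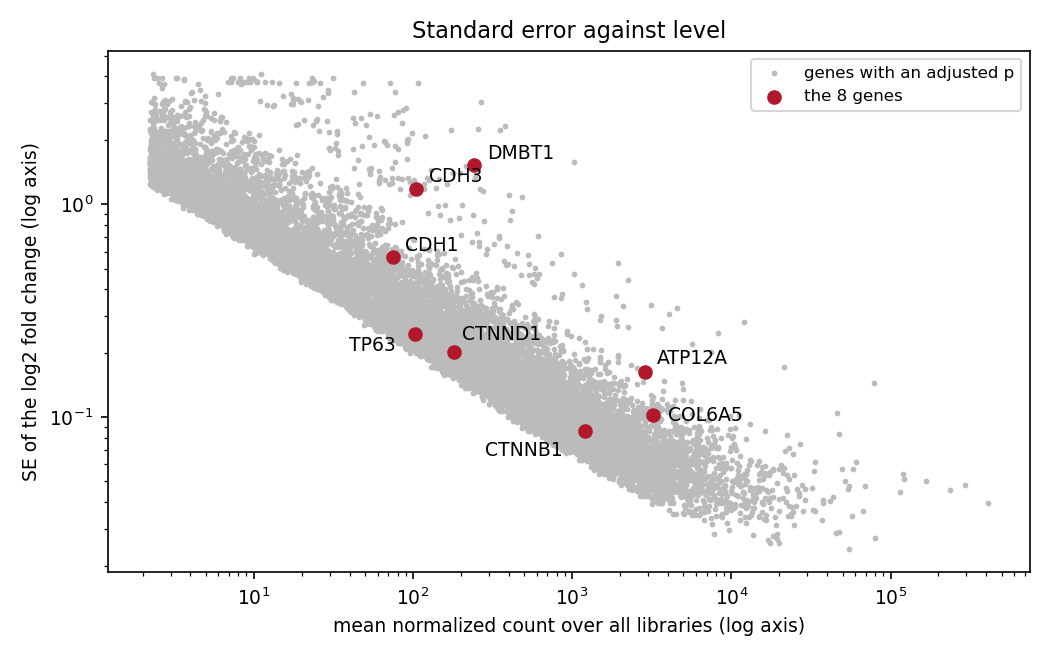
SE of the log2 fold change against mean normalized count (both log axes), tested genes in grey and the 8 genes in red. DMBT1 (SE 1.53) and CDH3 (SE 1.19) lie far above genes of like level, and TP63, CTNND1 and CTNNB1 lie in the band.

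CDH3 and CDH1 were part of a longer run of higher genes. The next genes after CDH1 on chromosome 16 are TANGO6, named for transport and Golgi organization, and HAS3, a hyaluronan synthase. In the authors' deposited table TANGO6 had a mean of 15.7 and a log2 fold change of 4.75 with an SE of 1.38 (adjusted p = 0.00292). HAS3 had a mean of 6.41 and a change of 6.29 with an SE of 1.74 (adjusted p = 0.00159), also by the authors' deposited table. The 4 genes span 482.5 kb, from 68636189 to 69118719, all on the plus strand. The reckoning used for CDH3, at the fitted fold changes, gives at most 0.243 normalized counts of HAS3 per denominator library and 1.68 of TANGO6. The fitted fold change of HAS3, like that of CDH3, is thus set against a group below the floor. Lower ends of the intervals, log2 2.89 for HAS3 and 2.05 for TANGO6, would allow more, so a level below the floor is not established.

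The run ended on both sides at genes with small changes. Before CDH3, the zinc finger gene ZFP90 had a log2 fold change of 0.75 (SE 0.22) at a mean of 653 in the authors' deposited table. After HAS3, whose end overlaps it on the other strand, CHTF8, a clamp loader subunit, had 0.21 (SE 0.07) at a mean of 2400 in the authors' deposited table. Among the 14 other genes within 8 on either side, 4 were called higher and 2 lower, with fold changes from -1.99 to 0.75 on the log2 scale. The farthest on the left, NFATC3, a transcription factor activated by calcium signalling, was lower at -1.28 (SE 0.06) in the authors' deposited table.

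Over the whole table, consecutive protein-coding genes called at least 4-fold higher were counted as a description. There were 183 single genes, 4 runs of 2, 1 run of 3 (GPR84, ZNF385A and ITGA5 on chromosome 12) and 1 run of 4, which is CDH3, CDH1, TANGO6 and HAS3. This count was made after the run had been seen. TANGO6 lost its call against a 1.5-fold change (adjusted p = 0.0534) and TANGO6 and HAS3 both lost it with widened errors (adjusted p = 0.457 and 0.403) and with Holm adjustment (adjusted p = 1 for each).

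**Figure D4:**
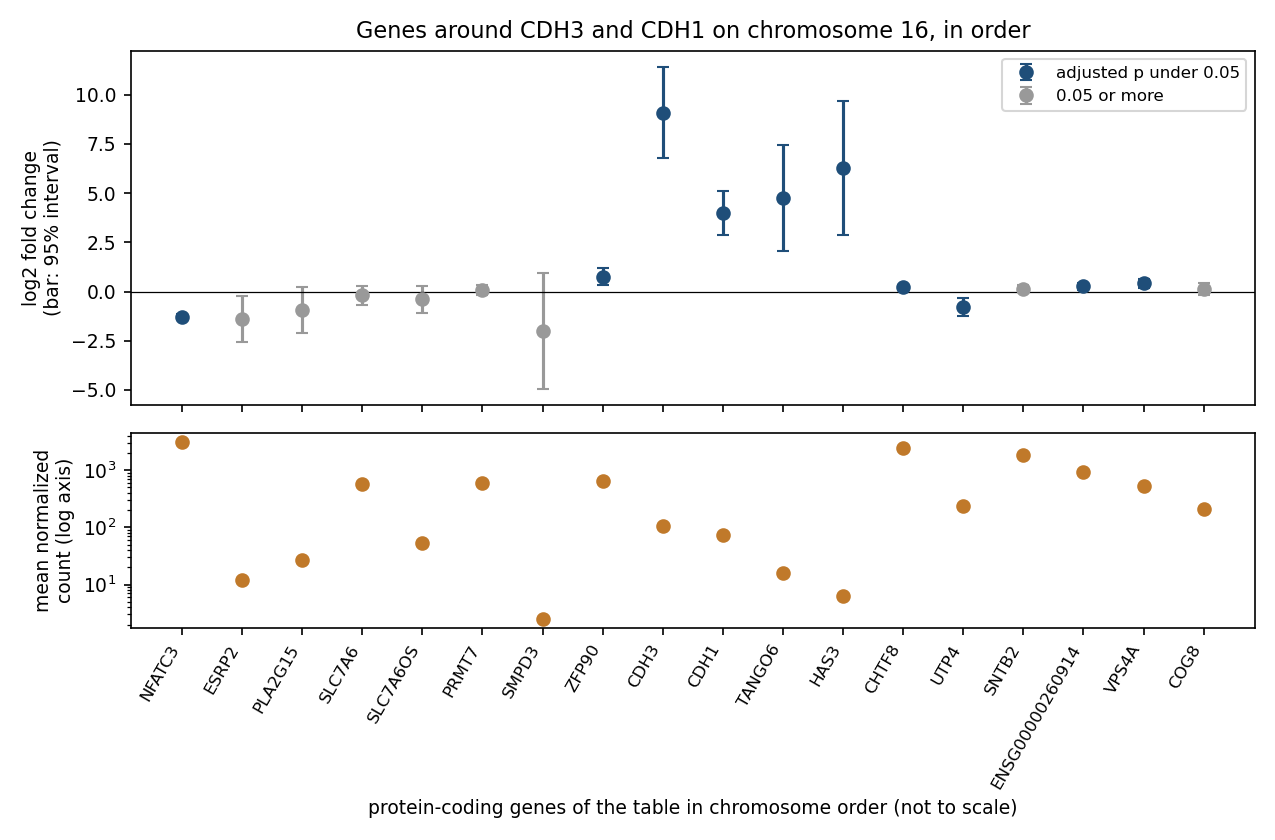
Top, log2 fold change with 95% interval for 18 consecutive protein-coding genes of the table around CDH3 and CDH1, in chromosome order and not to scale, blue where called. Bottom, their mean normalized count (log axis). CDH3, CDH1, TANGO6 and HAS3 lie from 3.98 to 9.09, and no other gene shown exceeds 0.75.

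None of the other 6 genes had a neighbour, within 3 on either side, that was called at least 4-fold higher. COL6A6, the collagen VI gene next to COL6A5, had a log2 fold change of 1.03 with an SE of 1.09 (adjusted p = 0.553) at a mean of 3.98, per the authors' deposited table. Next to ATP12A, PARP4 stood at 0.16 (SE 0.33) in the authors' deposited table, and RNF17 had no adjusted p. Farther out, CENPJ was higher at 1.39 (SE 0.10) and SPATA13 lower at -0.94 (SE 0.09) per the authors' deposited table. Of the genes beside DMBT1, CUZD1 and FAM24B did not pass, and HTRA1 had no adjusted p. Beside TP63, TPRG1 was higher at 0.66 (SE 0.21) and the transcriptional repressor gene BCL6 at 1.75 (SE 0.20) per the authors' deposited table, while P3H2 and the claudin genes CLDN1 and CLDN16 were listed at 0. Over the 42 neighbours that are not in the set, 26 were tested, 10 of them higher and 2 lower, TANGO6 and HAS3 among the higher, beside 14.7% higher and 14.8% lower over all tested genes.

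Few other cadherins were expressed. Of the 5 type I classical cadherins, 3 had an adjusted p, and besides CDH1 and CDH3 that was CDH2, neural cadherin, at a mean of 3.46 and a log2 fold change of 2.26 (SE 1.92) in the authors' deposited table. CDH4 was at 0. Of 13 type II cadherins 7 were at 0 and 1, CDH24, was tested, at a log2 fold change of 0.19 (SE 0.48) in the authors' deposited table. Of 16 other cadherin-family genes tested, 2 were higher and 2 lower, with a median log2 fold change of -0.46 against 0.00 over all tested genes. The higher ones, FAT4 at 2.88 (SE 0.77) and CDHR1 at 4.77 (SE 1.76), had means of 16.1 and 5.85 in the authors' deposited table. The lower ones were the calsyntenins CLSTN1 at -0.74 (SE 0.06) and CLSTN3 at -0.54 (SE 0.17), with means of 3109 and 2555 in the authors' deposited table.

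Among 7 catenins and catenin-binding genes tested, 3 were higher, 2 lower and 2 did not pass, with a median log2 fold change of 0.04. Besides CTNNB1 the higher ones were CTNNAL1, an alpha-catenin-like protein, at 2.15 (SE 0.51, mean 63.3) and CTNNBIP1, which keeps beta-catenin from its TCF partners, at 0.73 (SE 0.20, mean 158) in the authors' deposited table. JUP, or plakoglobin, the closest relative of beta-catenin, was lower at -0.54 (SE 0.14, mean 214), and CTNNA3 at -4.62 (SE 1.68) with a mean of 3.17 in the authors' deposited table. CTNNA1, the alpha-catenin of epithelia, had a log2 fold change of -0.23 (SE 0.34) in the authors' deposited table, and CTNNA2 and CTNND2 were at 0.

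Among 18 tested junction partners and sheddases 6 were higher and 2 lower, with a median log2 fold change of 0.43. The actin-linked scaffolds LIMA1 at 0.69 (SE 0.04) and AFDN, or afadin, at 0.48 (SE 0.04) were higher per the authors' deposited table. Of the proteases in this list ADAM10, which cuts E-cadherin, was lower at -0.52 (SE 0.06), and ADAM15 was higher at 0.94 (SE 0.14), in the authors' deposited table. Further members higher were PTPRM, ABLIM1 and CDC42.

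Of the 3 lymphocyte receptor genes for E-cadherin, 2 were lower and 0 higher in the numerator group. ITGB7 was lower at -0.86 (SE 0.08, adjusted p = 8.37e-28) with a mean of 1446 in the authors' deposited table. ITGAE was lower at -0.35 (SE 0.14, adjusted p = 0.0401, mean 298), and KLRG1 stood at -0.80 (SE 1.06) with a mean of 6.27 in the authors' deposited table. ITGAE was thus called at a value close to the threshold.

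In the beta-catenin pathway 1 of 16 tested genes was higher and 3 were lower, and the median log2 fold change was -0.18. BTRC, the F-box protein that marks beta-catenin for degradation, was lower at -1.01 (SE 0.21), as were the corepressor gene TLE3 at -0.47 (SE 0.13) and the coactivator gene BCL9L at -0.41 (SE 0.08) in the authors' deposited table. TLE4, another corepressor gene, was higher at 0.49 (SE 0.07) per the authors' deposited table. The scaffold gene APC and the kinase gene GSK3B did not pass, nor did AXIN2, a common readout of Wnt signalling, at -1.49 (SE 1.72) with a mean of 5.01 in the authors' deposited table.

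ZEB1 and ZEB2, repressors of E-cadherin, were abundant, and neither passed the test. ZEB1 had a mean of 3573 and a log2 fold change of -0.05 (SE 0.07), and ZEB2 a mean of 1747 and 0.02 (SE 0.08), in the authors' deposited table. Of 7 such genes tested, 1 was called, TCF4 at 0.22 (SE 0.07) in the authors' deposited table. SNAI2 and TWIST2 were at 0. By the deposited SE, the 95% intervals, -0.17 to 0.08 for ZEB1 and -0.13 to 0.17 for ZEB2, leave room for small differences only. That SE may reflect technical spread alone, so the true intervals may be wider.

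No epithelial factor or marker outside this set that was tested was called higher. Of 10 epithelial transcription and splicing factors tested, 0 were higher and 1, GRHL3, was lower at -1.40 (SE 0.25, mean 79.3) in the authors' deposited table. Of 9 epithelial markers tested, 0 were higher and 1, KRT7, was lower at -0.61 (SE 0.14) by the authors' deposited table. Low levels limit this, since 15 of the 24 markers in the table had no adjusted p. The tight junction list had 2 of 19 tested members higher and 2 lower, with a median of 0.00. CLDN12, at 0.56 (SE 0.20), was among the higher ones, and the polarity genes PARD3 at -2.59 (SE 0.38) and PALS1 at -0.38 (SE 0.16, adjusted p = 0.0499) lower in the authors' deposited table. Of the desmosome genes 6 of 12 were at 0, and the tested pair was split, with PKP4 higher at 0.85 (SE 0.12) and JUP lower in the authors' deposited table.

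Collagen VI had 4 of 5 tested chains higher and 0 lower, with a median log2 fold change of 1.03, beside 14.7% higher over all tested genes. COL6A5, 1 of the 4, was picked for its rise in this comparison. The part of the fibroblast markers given above was not tested. Besides COL6A5 these were COL6A3 at 2.59 (SE 0.49, mean 30.9), COL6A1 at 0.83 (SE 0.11, mean 800) and COL6A2 at 0.62 (SE 0.08, mean 1577) per the authors' deposited table. The alpha1 and alpha2 chains, which every collagen VI heterotrimer needs, had lower fold changes than COL6A3 and the picked COL6A5, a difference that was not tested. The remaining chain, COL6A6, stood at 1.03 (SE 1.09, mean 3.98) and did not pass.

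Among proton-potassium and sodium-potassium pump genes, ATP12A was the 1 member higher of 10 tested. The beta subunit gene ATP1B1 at -0.74 (SE 0.15) and the regulators FXYD5 at -0.36 (SE 0.06) and FXYD7 at -2.45 (SE 0.44) were lower per the authors' deposited table. The median of the pump list was -0.55. ATP4A, the gastric counterpart of ATP12A, stood at a mean of 0.124 with no adjusted p.

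The scavenger receptor cysteine-rich (SRCR) proteins had DMBT1 as the 1 member higher of 10 tested. CFI, a complement inhibitor, was lower at -5.57 (SE 0.74, mean 28.4), and the T-cell receptor-associated CD6 at -0.25 (SE 0.05, mean 3030), in the authors' deposited table.

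In the p53 family with its partners 5 of 11 tested genes were higher and 1 was lower, with a median of -0.02. TP73 was higher at 0.92 (SE 0.29, mean 194) in the authors' deposited table. PPP1R13L, an inhibitor of p53-family proteins, was higher at 1.57 (SE 0.29), as were PPP1R13B at 0.89 (SE 0.35) and the kinase gene HIPK2 at 0.38 (SE 0.14), and the ubiquitin ligase gene WWP1 was lower at -0.39 (SE 0.06), in the authors' deposited table. Of 11 epithelial p63 targets tested, 1 was higher, GRHL3 was lower and 9 did not pass, and KRT5, KRT14, COL17A1 and S100A2 were at 0.

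**Figure D5:**
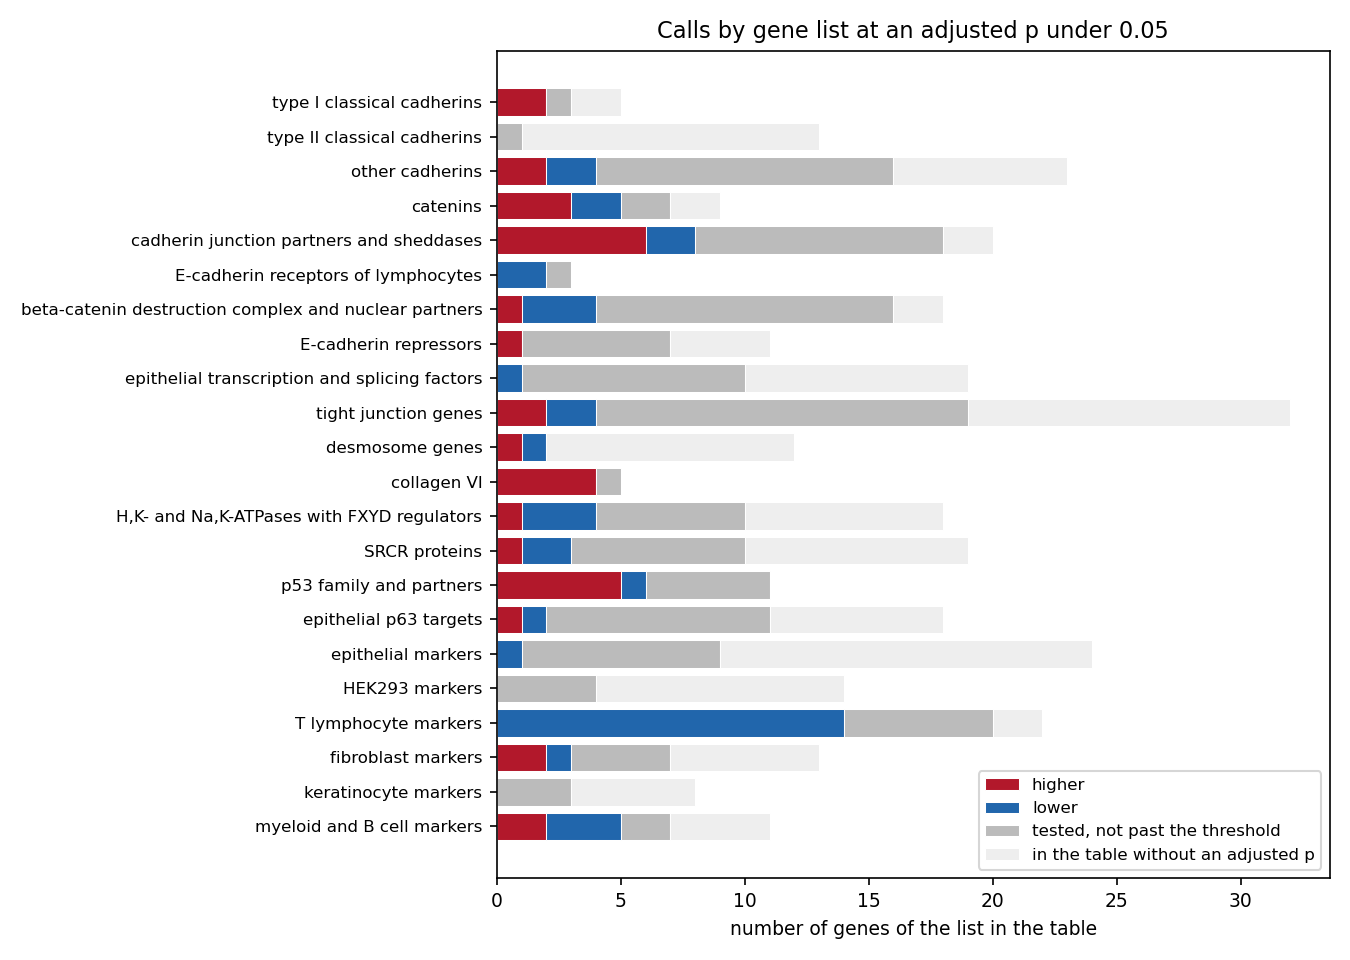
Number of genes of each list that were higher (red), lower (blue), tested without passing (grey) or in the table without an adjusted p (light grey). Collagen VI is the list with 4 of 5 members higher, the picked COL6A5 among them. T lymphocyte markers have 14 lower and 0 higher, and most epithelial lists are grey.

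All lists together held 303 genes of the table, 188 of them tested, with 34 higher and 38 lower and a median log2 fold change of -0.11. The shares, read against 14.7% higher and 14.8% lower over all tested genes, were 18.1% and 20.2%. The lists hold all 8 genes of the set, most of them picked for their rises in this comparison. That choice raises the share of higher genes, so nothing is read from it.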

How the data were processed

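RNA-seq of 6 labelled samples (3 per group) was deposited as a single table; per the labels' protocols, total RNA went into a SMARTer mRNA library kit. Role and version are not given for STAR, Salmon or the build hg38, which appear per the submitters' processing notes. Per the file headers, the deposited columns are those of a DESeq2 results table. The authors' baseMean is a mean normalized count, treated as a signal. The deposited log2 fold change and SE are on the log2 scale, the deposited statistic is a score (fold change over SE), and the deposited p-value and adjusted p were used as given, at a threshold of 0.05. No replicate or pairing check was possible and the depth of each library is unknown.

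Gene IDs were matched without version to names (33483 of 33644) and to GENCODE 29 (33582). Intervals are 95% normal intervals from the deposited SE. Computed here were levels per kb of merged exons, neighbours (3 protein-coding genes of the table on each side), list counts and 6 alternatives, with Python 3.11.15, numpy 2.4.6, pandas 2.3.3, scipy 1.17.1 and matplotlib 3.10.9. The adjustment and threshold tests were tested on simulated data. Named were the 8 genes, their neighbours in rank and on the chromosome, and from each of 22 lists up to 3 called genes with the largest change per direction and up to 2 with the highest mean, not all of which are printed; other genes were named after their values were seen. The genes and lists were chosen with earlier results of these data known. Results for some genes are not reported here.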

Additional observations from a re-analysis of the deposited data

How the results depend on the processing

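Fold changes and errors are deposited and did not change under any alternative; only calls did. Testing against a 1.5-fold change called 653 genes (330 higher, 323 lower) in place of 4120, errors widened by the robust SD of all statistics (2.03) called 1196 (600 higher, 596 lower), and Holm adjustment called 1779 (877 higher, 902 lower). Of the listed genes these settings called 15 higher and 11 lower, 15 and 16, and 18 and 24, in place of 34 and 38. CTNNB1 (log2 fold change 0.38) lost its call under all 3 (adjusted p = 1, 0.228 and 0.154), and DMBT1 (5.95) with widened errors and Holm adjustment (adjusted p = 0.337 and 1). CDH1, CDH3, ATP12A, COL6A5 and TP63 passed and CTNND1 did not in all 6 alternatives, which also included no filter on low means, means of at least 72.0 and protein-coding genes only. The number of called genes moved by over 1.5 times in 14 of 22 lists against a 1.5-fold change, 16 with widened errors, 11 with Holm adjustment, 4 at the higher minimum mean and 1 without the filter.

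No paired analysis was possible because the table holds no value per sample. For the same reason leaving out samples and other normalizations were not run. Low means limit most epithelial genes: fold changes of CDH3 and HAS3 are set against a group that the fitted values place below 1 count per library.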
